A study of Mus musculus with 24 samples.

Results

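The mitochondrial ribosome proteins described here are the genes whose mouse symbol starts with Mrpl or Mrps followed by a number, pseudogenes left out, and whose normalized counts average 10 or more across the libraries. Of 78 symbols of that form 77 passed, among 17333 genes tested and 56748 gene identifiers in all, and Mrpl53, which is listed at 0 in every library, did not. The libraries came from poly A selected total RNA of whole mouse kidney. Each of the 4 groups had 6 libraries, namely females and males sampled mid active period, and females and males sampled mid inactive period. All groups are of 1 tissue with no other treatment in the labels, and the sources used here do not give strain, genotype, age or clock hour. The labels do not say that the libraries of a group come from separate animals, so p-values measure the spread between these libraries. Whole kidney also mixes cell types, so fewer cells of a type and less RNA per cell cannot be told apart.

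Mitochondria keep a ribosome of their own, which makes the few proteins encoded by mitochondrial DNA, all of them subunits of the respiratory chain and ATP synthase. Its 2 ribosomal RNAs come from mitochondrial DNA, but every one of its proteins is encoded in the nucleus, made in the cytosol and imported, so a working particle needs both genomes. Kidney tubules, the proximal tubule above all, reabsorb salt and solutes with ATP from oxidative phosphorylation and are rich in mitochondria. Of the 77 genes 50 encode proteins of the large subunit, which forms peptide bonds, and 26 encode proteins of the small subunit, which binds and decodes the mRNA. Both counts follow current assignments rather than symbols, since the products of Mrps30 and Mrps18a sit in the large subunit. The product of Mrps36 is now known as a part of the 2-oxoglutarate dehydrogenase complex and not of the ribosome, and the gene is kept here because its symbol meets the rule. There were 46 genes with a bacterial homologue and 29 for proteins particular to mitochondria, and the class of Mrpl55 was left unsettled.

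Promoters are shown for genes picked by their p-values in the comparisons below. RefSeq start windows (build GRCm38.p6) were found for 68 of the 77 genes, and the 250 bases before the annotated start, 5′ to 3′ on the strand of the gene, follow for Mrpl20, which had the smallest p-value of the male against female comparison in the active period, and for the 4 genes with an entry among the 5 whose period difference differed between the sexes. Capitals mark matches on either strand to the core CCGGAAG, bound by GABPA and other ETS factors, or to the E-box CACGTG, bound by clock and MYC family factors.
Mrps22, chr9:98601680-98601929, minus strand: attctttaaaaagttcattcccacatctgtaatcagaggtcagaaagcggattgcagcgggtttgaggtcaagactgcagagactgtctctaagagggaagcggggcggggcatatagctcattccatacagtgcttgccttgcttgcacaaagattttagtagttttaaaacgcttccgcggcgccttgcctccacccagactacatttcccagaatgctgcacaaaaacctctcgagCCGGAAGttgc
Mrpl27, chr11:94653541-94653790, plus strand: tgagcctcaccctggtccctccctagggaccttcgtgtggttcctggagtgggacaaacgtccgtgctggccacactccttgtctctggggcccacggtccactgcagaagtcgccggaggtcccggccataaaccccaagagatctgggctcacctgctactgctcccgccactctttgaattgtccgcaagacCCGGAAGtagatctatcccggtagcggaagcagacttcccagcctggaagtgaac
Mrps26, chr2:130563507-130563756, plus strand: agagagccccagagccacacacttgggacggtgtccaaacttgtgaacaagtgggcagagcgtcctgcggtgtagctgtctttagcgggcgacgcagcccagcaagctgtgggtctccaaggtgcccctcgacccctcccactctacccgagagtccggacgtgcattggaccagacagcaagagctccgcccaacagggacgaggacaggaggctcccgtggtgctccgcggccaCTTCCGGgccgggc
Mrps24, chr11:5707702-5707951, minus strand: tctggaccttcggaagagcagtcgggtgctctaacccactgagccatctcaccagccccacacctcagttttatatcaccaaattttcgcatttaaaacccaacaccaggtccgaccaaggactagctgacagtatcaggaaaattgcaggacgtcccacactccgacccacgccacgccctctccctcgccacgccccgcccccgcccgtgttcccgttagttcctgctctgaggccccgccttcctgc
Mrpl20, chr4:155802628-155802877, plus strand: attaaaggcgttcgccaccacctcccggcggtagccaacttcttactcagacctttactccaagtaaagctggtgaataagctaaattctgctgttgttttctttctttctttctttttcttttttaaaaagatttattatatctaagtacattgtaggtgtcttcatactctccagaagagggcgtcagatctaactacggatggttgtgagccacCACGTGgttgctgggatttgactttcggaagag
The capitals start 11 bases before the annotated start of Mrps22, 55 before that of Mrpl27 and 14 before that of Mrps26, where the core lies on the opposite strand. In Mrpl20 the E-box starts 33 bases before the start. The stretch printed for Mrps24 holds none of the motifs searched, and a YY1 match of this gene starts 37 bases into its transcript, outside the stretch. Over windows of 300 bases that also take in 50 bases after the start, the core CCGGAAG on either strand was in 25 of 68 genes (36.8%) against 18.2% of 11247 tested coding genes with an entry. The YY1 motif AAGATGGC was in 12 (17.6%, against 4.77%), and the NRF1 motif GCATGCGC in 8 (11.8%, against 5.41%). The E-box was in 5 genes (7.35%, against 11.2%), and neither the D-box TTATGTAA (0.747% of tested coding genes) nor the ERR motif TCAAGGTCA (0.329%) was in any. The median male against female log2 fold in the active period was 0.47 in the 25 genes with the CCGGAAG core and 0.48 in the 43 without it. These matches are letters in a window and were not tested for binding.

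The libraries held 31039867 to 39302246 reads in genes, and deposited values are counts divided by 1 size factor per library. On that scale the totals of males were larger, with means of 37904283 in active and 37175270 in inactive males against 31319714 and 30620649 in females. All differences below are log2 differences of normalized count + 1 between group means, with standard errors and p-values from limma fitted to all 24 libraries and adjusted by the Benjamini-Hochberg method over 17333 genes, and genes with an adjusted p under 0.05 are called higher or lower. The 5 comparisons share groups, so their results are not independent of each other. Exons of 32 of the 77 genes overlap another annotated gene, 27 of them on the opposite strand, and because the strand setting of the counting is not given, the counts of such neighbours may be mixed. The overlapping genes named below include Mrpl12, Mrpl18, Mrpl19, Mrpl27, Mrps7, Mrps11, Mrps24, Mrps25, Mrps26, Mrps30 and Mrpl58, and Mrps11 and Mrpl46 overlap each other.

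Mitochondrial ribosome genes were among the moderately abundant genes of the kidney. Their mean normalized counts ran from 291 for Mrpl52 to 4329 for Mrpl50 with a median of 1224, against a median of 445 over all genes tested. Scaled per kilobase of the principal transcript, the level of Mrpl42, a protein of the large subunit particular to mitochondria, was 5485. Mrps21, a small subunit protein with a bacterial homologue, was at 5482 per kilobase, next to Mrpl42, and their order changed with the group: Mrps21 was below Mrpl42 in active females (4386 against 4922) and above it in active males (7295 against 6640). Mrpl30 (3030), Mrpl12 (2924) and Mrpl20 (2249) came next on this scale. Mrpl12 encodes a large subunit stalk protein that is also known to bind the mitochondrial RNA polymerase. The lowest levels per kilobase were those of Mrpl19 (135), Mrpl57 (137) and Mrps25 (155), and the median was 791. The genes lie on 17 chromosomes, 11 of them on chromosome 11 and 0 on the X chromosome.

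**Figure D1:**
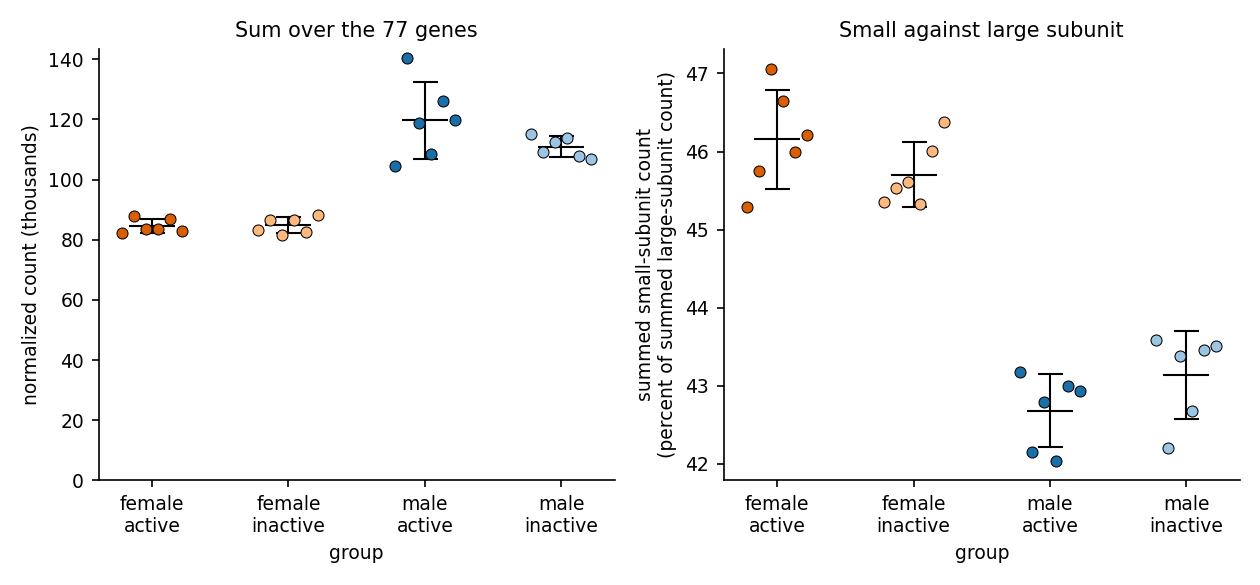
Left, the normalized counts of the 77 genes summed in each library, in units of 1000. Right, the summed count of the 26 small subunit genes as a percentage of that of the 50 large subunit genes, on an axis that does not start at 0. Points are libraries, and bars give the group mean and SD (n = 6). No male library overlaps a female one in either panel, and active males spread the most on the left.

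Male kidneys held more mitochondrial ribosome mRNA than female kidneys in both periods. The summed normalized count of the 77 genes was 84529 ± 2338 (SD, n = 6) in active females, with libraries from 82100 to 87898, and 84787 ± 2680 in inactive females, from 81658 to 88267. In active males it was 119663 ± 12884, from 104459 to 140406, and in inactive males 110879 ± 3457, from 106686 to 115242. Each male library was thus above each female library, and active males spread far more than the other groups. Expressed as CPM of its own library, which removes the difference in totals, the sum was 2700 ± 75.3 in active females (2601 to 2800) and 2769 ± 47.4 in inactive females (2697 to 2834). In males it was 3151 ± 245 (2894 to 3553) in the active and 2983 ± 82.2 (2872 to 3114) in the inactive period. The sexes did not overlap on that scale either, although the gap narrowed.

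In the active period 73 of the 77 genes were called higher in males and 0 lower, where 30.1% of all tested genes were called higher and 30.5% lower. Lower calls also numbered 0 at an unadjusted p under 0.05 in limma and with edgeR and DESeq2 on recovered reads, in this period and in the inactive one. The estimates of all 77 were positive, with a median of 0.48 and an interquartile range of 0.32 to 0.64, against a median of -0.05 over all genes. In 60 genes the 6 male libraries all lay above the 6 female ones, which held for 20.2% of all genes. The differences were modest: 26 genes were at least 1.5-fold higher and 0 reached 2-fold. In the inactive period 70 genes were called higher and 0 lower (27.9% and 27.8% of all genes), with a median of 0.38 against -0.04, and in 60 genes the groups did not overlap (18.6% of all genes higher in that way). The 70 genes were called higher in both periods, as were 23.6% of all genes, and in 55 genes males lay above females without overlap in both periods (14.9% of all genes). Rescaled so that all libraries have equal totals, which shifts the median of all genes to -0.317 in the active and -0.316 in the inactive period, 46 genes were called higher and 5 lower in the active period (median 0.21) and 25 higher and 5 lower in the inactive period (median 0.10). Under that scaling 14 of the 77 estimates turned negative in the active period, and 17 did in the inactive period, where 2 were negative before. Of the estimates that turned negative, 10 in the active and 12 in the inactive period had been called higher before rescaling. After rescaling Mrpl1, Mrpl23, Mrps6 and Mrps35 were called lower in both periods, Mrps2 in the active and Mrpl24 in the inactive period. Relative to the median of all genes, the members' median was 0.53 higher in the active and 0.42 higher in the inactive period. Rescaling shifts all genes of a library nearly alike, so this gap is nearly the same under both scalings by construction. It is therefore no separate check on the scaling.

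**Figure D2:**
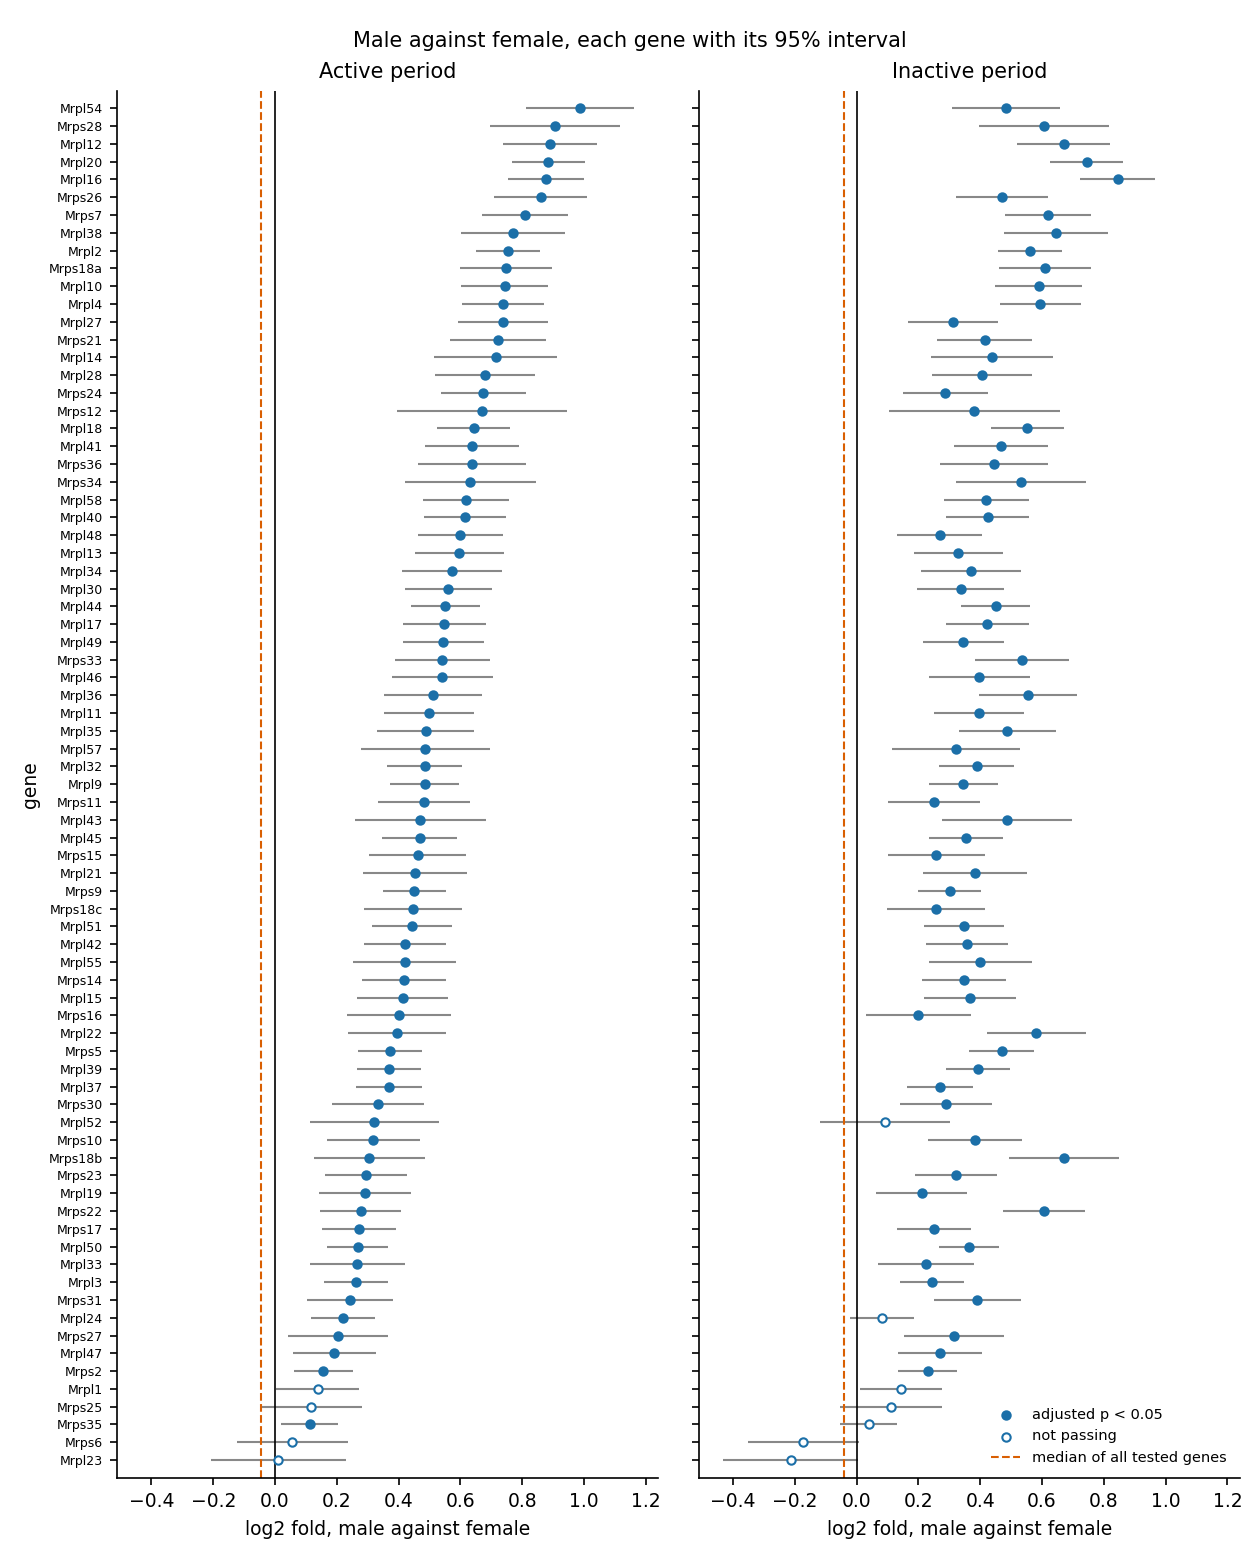
Log2 fold of males against females for each of the 77 genes (rows, ordered by the active period), in the active (left) and inactive period (right). Points are estimates, lines are 95% intervals, filled points have an adjusted p under 0.05, and the dashed line is the median of all 17333 tested genes. Nearly all genes lie to the right of both 0 and the dashed line, from 0.01 for Mrpl23 to 0.99 for Mrpl54 on the left.

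The large subunit genes included those with the clearest differences. Mrpl20, a ribosomal RNA binding protein with a bacterial homologue, ranged from 1190 to 1391 normalized counts in active females (median 1255) and from 2130 to 2806 in active males (median 2314). In the inactive period its values were 1135 to 1329 in females (median 1203) and 1932 to 2188 in males (median 2007). Every male library was above every female one in both periods, and the log2 fold was 0.88 ± 0.06 (SE) in the active (adjusted p = 5.98e-14) and 0.74 ± 0.06 in the inactive period (adjusted p = 3.75e-12). Mrpl16, which lies near the peptidyl transferase centre, had 975 to 1240 normalized counts in active females (median 1210) and 1957 to 2355 in active males (median 2142). It kept this distance in the inactive period, with 986 to 1111 in females (median 1050) and 1815 to 2027 in males (median 1857), and its log2 fold of 0.84 ± 0.06 was the highest of the 77 there (adjusted p = 4.63e-13, and 0.88 ± 0.06 with adjusted p = 1.50e-13 in the active period).

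Mrpl12 had 2509 to 3089 normalized counts in active females (median 2643), 2731 to 3069 in inactive females (median 2858), 4022 to 6532 in active males (median 5092) and 4402 to 4816 in inactive males (median 4600). The sexes were separate in both periods, with the widest spread in active males. Its log2 fold was 0.89 ± 0.07 in the active (adjusted p = 1.99e-11) and 0.67 ± 0.07 in the inactive period (adjusted p = 8.08e-09). Mrpl2, part of the catalytic core of the large subunit, was between 932 and 1037 in active females (median 953) and between 1510 and 1831 in active males (median 1592), a log2 fold of 0.75 ± 0.05 (adjusted p = 1.47e-13). In the inactive period its difference was 0.56 ± 0.05 (adjusted p = 1.30e-10). Mrpl4, an early assembling large subunit protein, differed by 0.74 ± 0.06 (adjusted p = 3.90e-11) and 0.59 ± 0.06 (adjusted p = 4.57e-09) in the active and inactive periods. Mrpl18, whose family binds ribosomal 5S RNA, differed by 0.64 ± 0.06 and 0.55 ± 0.06. Among the large subunit genes with other roles, Mrpl58, a peptidyl-tRNA hydrolase built into the ribosome, was higher in males by 0.62 ± 0.07 and 0.42 ± 0.07, Mrps18a by 0.75 ± 0.07 and 0.61 ± 0.07 and Mrps30 by 0.33 ± 0.07 and 0.29 ± 0.07.

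In the small subunit Mrps28, Mrps26 and Mrps7 differed most in the active period, by 0.91 ± 0.10, 0.86 ± 0.07 and 0.81 ± 0.07. Mrps7, which binds the head of the small subunit RNA, was between 1684 and 1892 in active females (median 1829) and between 2672 and 3966 in active males (median 3178), and its inactive difference was 0.62 ± 0.07 (adjusted p = 5.75e-09). Mrps5 was higher by 0.47 ± 0.05 in the inactive period. Mrps22 was also called higher there, with 725 to 922 normalized counts in inactive females (median 806) and 1155 to 1299 in inactive males (median 1240). Its sex difference was larger in the inactive than in the active period. Mrps12, whose bacterial homologue sits in the decoding centre, was lower in level and noisier: it had 315 to 391 normalized counts in active females (median 343) and 363 to 815 in active males (median 546). The log2 fold of Mrps12 was 0.67 ± 0.13 in the active (adjusted p = 1.00e-04) and 0.38 ± 0.13 in the inactive period (adjusted p = 0.018), although libraries of the sexes overlapped in both periods. Mrps36, the gene outside the ribosome, was higher in males by 0.64 ± 0.09 and 0.45 ± 0.09. With libraries rescaled to equal totals the inactive calls of Mrps12, Mrps36, Mrpl58 and Mrps30 were lost (adjusted p = 0.481, 0.0644, 0.0503 and 0.905), and so was the active call of Mrps30 (adjusted p = 0.468).

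A few genes did not follow. Mrpl23 differed by 0.01 in the active period (95% interval -0.21 to 0.23, adjusted p = 0.936) and by -0.21 in the inactive period (-0.43 to 0.01, adjusted p = 0.0920). Mrps6 had estimates of 0.06 (-0.12 to 0.24) and -0.17 (-0.35 to 0.01), and Mrps25 of 0.12 (-0.05 to 0.28) and 0.11 (-0.05 to 0.28). Mrpl1 was at 0.14 in both periods (0.00 to 0.27 and 0.01 to 0.28) with adjusted p = 0.0684 and adjusted p = 0.0628. Mrps35, Mrpl24 and Mrpl52 passed in the active period only, with inactive estimates of 0.04, 0.08 and 0.09. These intervals exclude a difference as large as the median of the 77 genes for Mrpl23, Mrps6, Mrps25 and Mrpl1 in both periods, and they were named after their values were seen.

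Both subunits and both evolutionary classes were higher in males. Of the 50 large subunit genes 48 were called higher in the active and 46 in the inactive period, with medians of 0.50 and 0.39. Of the 26 small subunit genes 24 and 23 were called higher, with medians of 0.41 and 0.33. The median was 0.49 in the 46 genes with a bacterial homologue and 0.47 in the 29 genes particular to mitochondria in the active period, and 0.38 and 0.39 in the inactive period. Within each library, where no scaling enters, the summed count of the small subunit was 46.2% ± 0.635 (SD, n = 6) of that of the large subunit in active females (45.3 to 47.1) and 45.7% ± 0.415 in inactive females (45.3 to 46.4). It was 42.7% ± 0.471 in active males (42.0 to 43.2) and 43.1% ± 0.562 in inactive males (42.2 to 43.6), so that the sexes did not overlap while the periods did. The sex differences of single genes were alike in the 2 periods, which rest on separate libraries, with Pearson's r = 0.72 and Spearman's rho = 0.68 across the 77 genes, given as a description since genes share libraries.

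**Figure D3:**
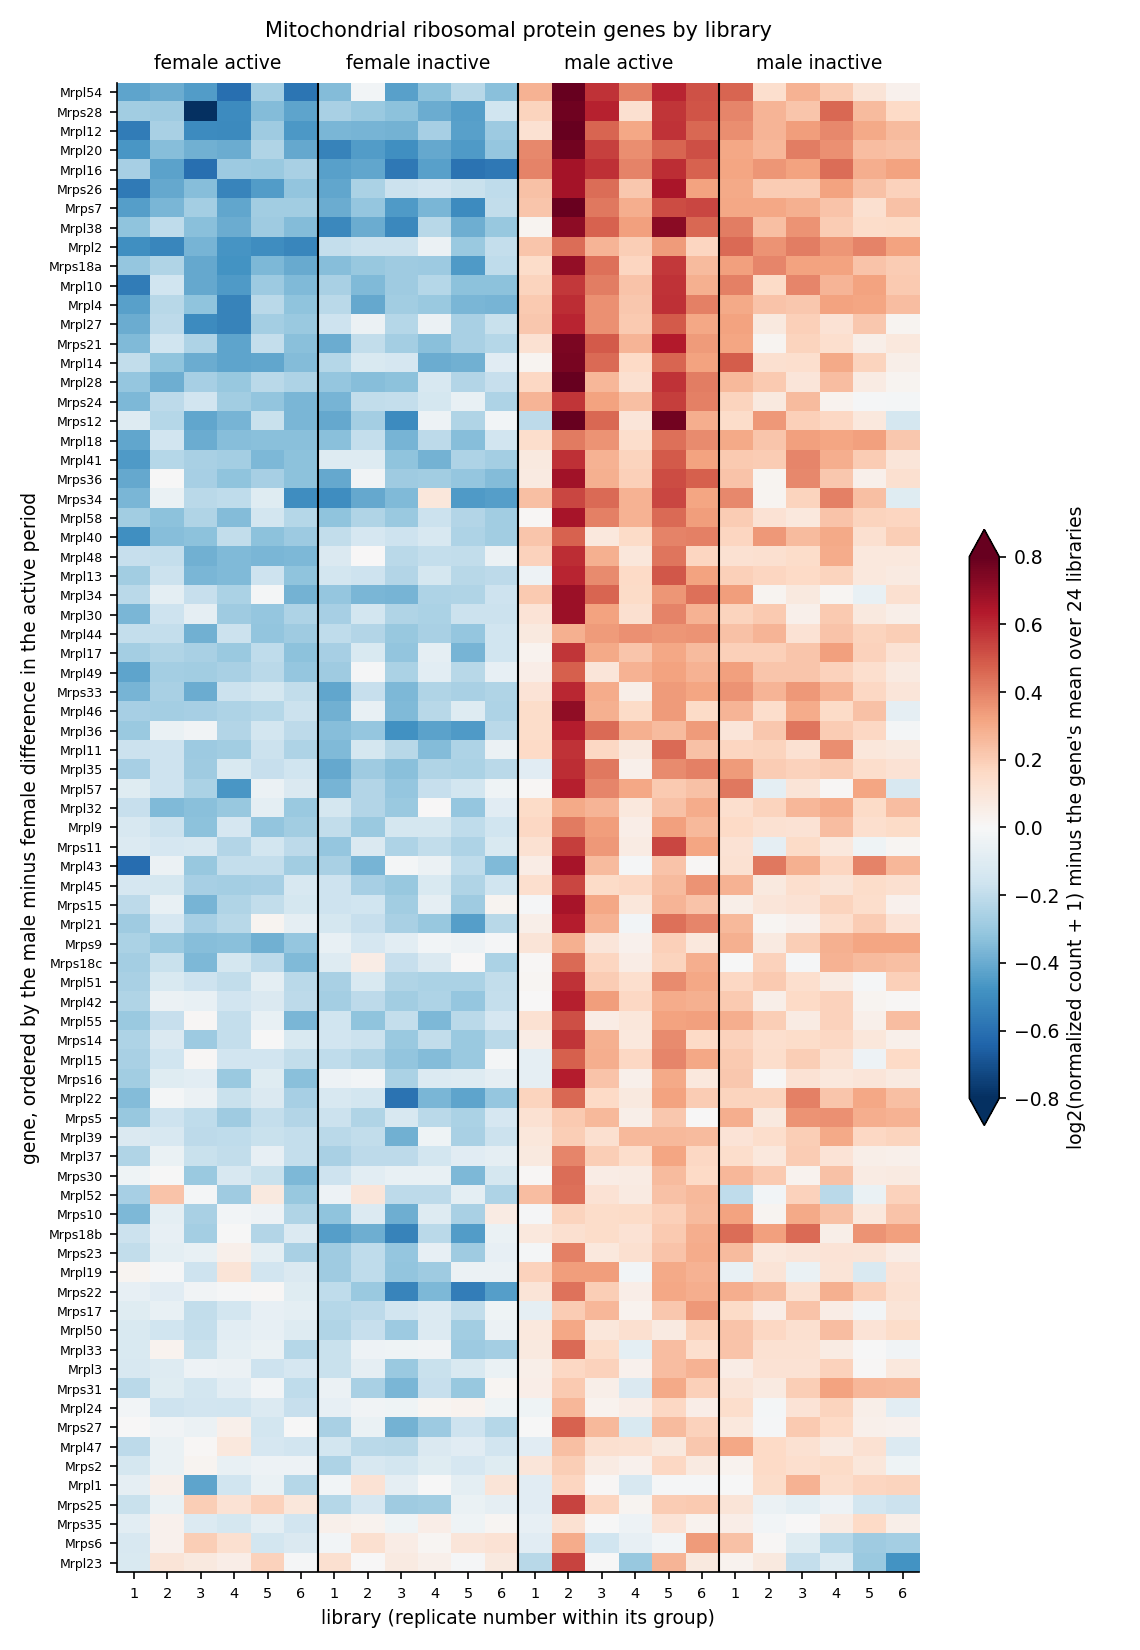
Each row is 1 of the 77 genes, ordered by the male against female difference in the active period, and each column 1 of the 24 libraries. Colour gives log2(normalized count + 1) minus the mean of the gene over all libraries, red for above and blue for below, with values beyond 0.8 shown as 0.8. Female columns are mostly blue and male columns mostly red, and replicate 2 of the active males is the reddest column, the highest of all 24 libraries in 58 genes.

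Between the active and inactive periods the genes as a group moved little. In females 2 genes were called higher and 3 lower in the active period (7.97% and 6.98% of all genes), and the median of the 77 was -0.00. Mrps22, a small subunit protein particular to mitochondria whose loss in people causes a respiratory chain disease, rose the most. It had 992 to 1071 normalized counts in active females (median 1029) and 725 to 922 in inactive females (median 806), which did not overlap (4.40% of all genes were higher without overlap), and its log2 fold was 0.35 ± 0.06 (adjusted p = 2.63e-04). Mrps25, the other gene called higher, had 827 to 1070 against 767 to 900, with overlap, and a log2 fold of 0.24 ± 0.08 (adjusted p = 0.046). The genes called lower were of both subunits. Mrpl2 was between 932 and 1037 in active and between 1092 and 1301 in inactive females, and fell by 0.30 on the log2 scale (adjusted p = 1.04e-04). Mrps9, a small subunit protein with a bacterial homologue, was at 1120 to 1227 against 1334 to 1453 and fell by 0.26 (adjusted p = 3.96e-04), again without overlap (3.43% of all genes were lower in that way). Mrpl27 was at 696 to 872 against 842 to 978 and fell by 0.22 (adjusted p = 0.0377). The calls of Mrps22, Mrpl2 and Mrps9 held in each analysis with 1 library left out, whereas those of Mrps25 and Mrpl27 were lost in 14 and 6 of 24 such analyses, at adjusted p-values up to 0.106 and 0.105, and also without the filter on low values (0.0921 and 0.083).

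In males 12 genes were called higher in the active period and 0 lower (8.43% and 6.95% of all genes), with a median of 0.11 against 0.01 over all genes, and 66 of 77 estimates were positive. At an unadjusted p under 0.05 in limma 27 were higher and 4 lower, and edgeR and DESeq2 called 15 higher and 0 lower each. No gene separated the 2 groups without overlap (2.28% of all genes were higher and 2.01% lower in that way). Coding genes with principal transcripts under 1000 bases had a male median of 0.16, close to 0.18 in the mitochondrial ribosome genes of that length. From 1000 to 2000 bases the medians were 0.06 and 0.08, and above that -0.01 and 0.10. After correction for exon length and GC content 11 of the 77 were called higher and 1 lower, with a median of 0.09. Mrps24 had 1038 to 1307 normalized counts in active males (median 1132) and 871 to 1051 in inactive males (median 914), and rose by a log2 fold of 0.31 ± 0.07 (adjusted p = 0.00263). Mrps21 had 2593 to 4016 against 2421 to 2970 and rose by 0.30 ± 0.08 (adjusted p = 0.00725). Mrpl54, a small protein of the large subunit, had 908 to 1324 against 765 to 1035 and rose by 0.33 ± 0.09 (adjusted p = 0.00864). Next came Mrps11 (0.28), Mrpl34 (0.30), Mrpl20 (0.21), Mrps7 (0.22) and Mrpl19 (0.22), and the others called were Mrpl28, Mrps25, Mrpl16 and Mrpl27.

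The male period difference rested in part on replicate 2 of the active males. This library was the highest of its group in 63 of the 77 genes, while replicate 1 was the lowest in 44. Its size factor of 0.828 was the lowest of the 24, at a depth of 32710845 reads. Its summed count was 140406, and without it the mean of active males was 115515 ± 8855 (SD, n = 5), against 110879 in inactive males. Without replicate 2 the count of genes called higher was 5, and without replicate 1 it was 24. The call of Mrpl20 was lost without replicate 2 (adjusted p = 0.0519), that of Mrps25 in 8, Mrpl19 in 7 and Mrps7 in 6 of 24 analyses with 1 library left out, and those of Mrps24, Mrps21, Mrpl54, Mrps11 and Mrpl34 held in all. After correction for exon length and GC content the calls of Mrpl54, Mrpl34 and Mrps7 were lost (adjusted p = 0.0677, 0.0939 and 0.158). Markers of other cell types moved with the period in males as well: of 5 endothelial markers all had positive estimates, with 2 called higher and a median of 0.18, and 2 of 4 distal tubule and 2 of 5 principal cell markers were called higher and 0 lower. Of 9 proximal tubule markers 1 was higher and 1 lower, and of all genes 8.43% were higher and 6.95% lower. The part of these cell types in the male period difference was not tested. The same library also had the highest sums of cytosolic ribosomal proteins (759582, without it a mean of 566922 in that group) and of nuclear respiratory chain genes, ATP synthase included (867133, without it 718602). 

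**Figure D4:**
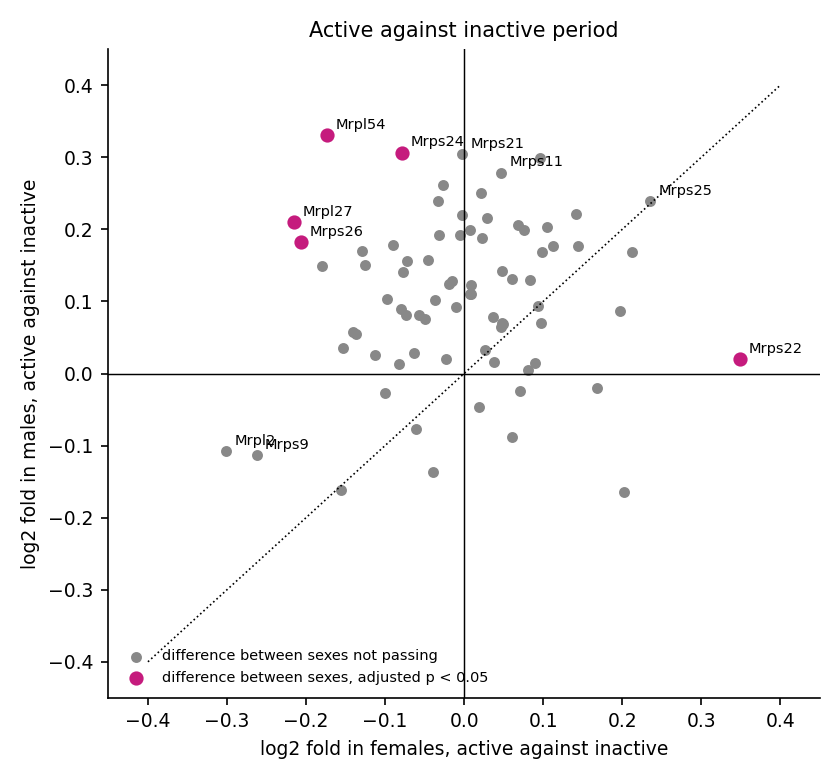
Log2 fold of the active against the inactive period in females (horizontal) and in males (vertical) for each of the 77 genes, with a dotted line of equal change. Large points mark the 5 genes whose change differed between the sexes with an adjusted p under 0.05. Most points lie above the horizontal line at 0, and Mrps22 stands to the right with 0.35 in females and 0.02 in males.

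The period difference itself differed between the sexes for 5 genes, tested as an interaction (male change minus female change). Called higher in males than in females were 4 genes and lower 1 (1.41% and 1.30% of all genes), and the median of the 77 was 0.12 against 0.01. After correction for exon length and GC content this median was 0.07, with 3 genes called higher and 1 lower. Mrpl27, a large subunit protein with a bacterial homologue near the peptidyl transferase centre, fell in active females and rose in active males, a difference of 0.42 ± 0.10 (adjusted p = 0.0196). Mrpl54 changed by -0.17 in females and 0.33 in males, a difference of 0.50 ± 0.12 (adjusted p = 0.0206). Mrps24 changed by -0.08 and 0.31, a difference of 0.39 ± 0.10 (adjusted p = 0.0249). Mrps26 changed by -0.21 and 0.18, a difference of 0.39 ± 0.10 (adjusted p = 0.0374), with 534 to 636 normalized counts in active and 594 to 711 in inactive females, and 922 to 1259 in active and 900 to 989 in inactive males. Mrps22 went the other way, with 0.35 in females and 0.02 in males (difference -0.33 ± 0.09, adjusted p = 0.0429), and its male values of 1102 to 1439 in the active and 1155 to 1299 in the inactive period overlapped. The calls of Mrps22 and Mrps26 were lost in 18 and 14 of 24 analyses with 1 library left out (adjusted p up to 0.0834 and 0.0754), and without the filter on low values (0.103 and 0.0808). Those of Mrpl54 and Mrps24 were lost after correction for exon length and GC content (adjusted p = 0.124 and adjusted p = 0.150), and that of Mrps24 also without the filter on low values (0.0595).

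**Figure D5:**
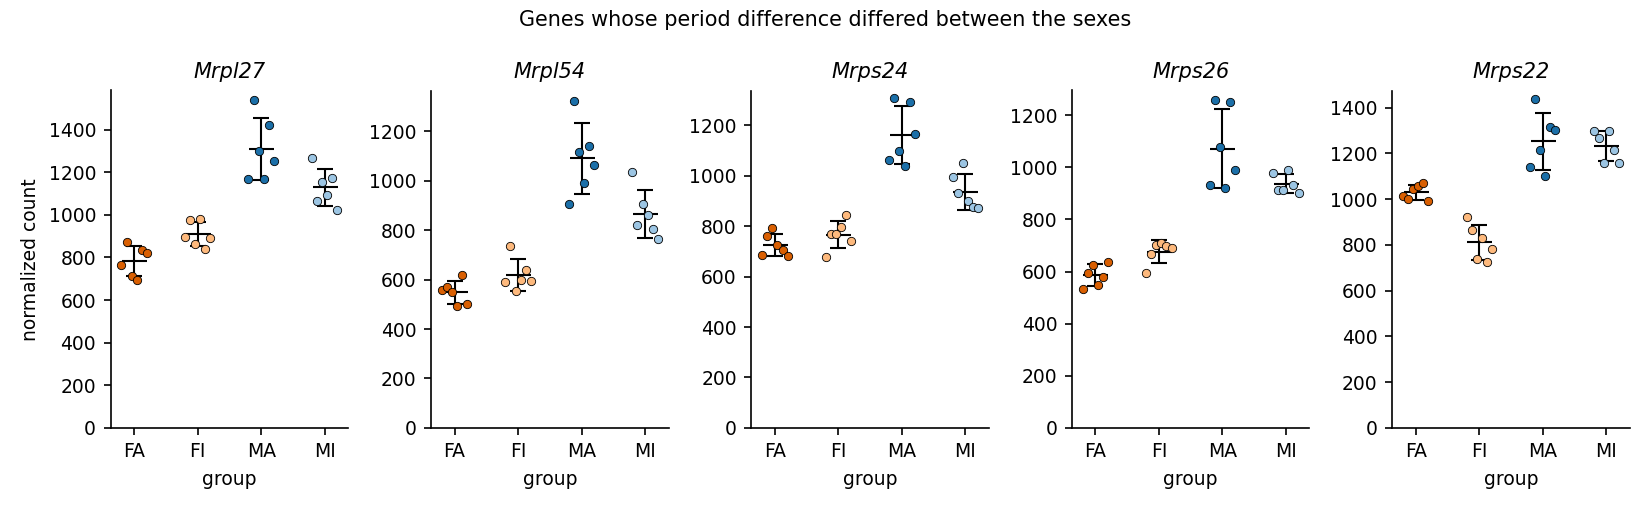
Normalized counts of the 5 genes whose period difference differed between the sexes, per library, in active females (FA), inactive females (FI), active males (MA) and inactive males (MI). Bars give the mean and SD (n = 6). Mrps22 is lower in FI than in FA and differs by 0.02 between the male groups, while the other 4 are higher in MA than in MI on average and not in FA than in FI.

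The other genes of the mitochondrial translation system were taken as lists. Of 5 ribosome subunits whose symbols differ in form 4 were called higher in males and 0 lower in each period. Aurkaip1, a small subunit protein, was higher by 0.70 ± 0.07 in the active and 0.28 ± 0.07 in the inactive period, and Chchd1 by 0.58 ± 0.07 and 0.31 ± 0.07. Dap3, a GTP-binding small subunit protein, was higher by 0.42 ± 0.07 and 0.20 ± 0.07. Gadd45gip1 passed in the active period only (0.51 ± 0.18), a call lost without replicate 2 or without replicate 3 of the active females (adjusted p up to 0.0601), and Ptcd3 in the inactive period only (0.25 ± 0.05). Aurkaip1 and Chchd1 were also called higher in active than in inactive males, and the period difference of Aurkaip1 differed between the sexes (0.42, adjusted p = 0.0249). The male call of Chchd1 was lost in 5 of 24 analyses with 1 library left out (adjusted p up to 0.119), without the filter on low values (0.0711), with only the groups compared (0.0912) and after correction for exon length and GC content (0.0589). That correction also ended the male call (adjusted p = 0.0556) and the interaction of Aurkaip1 (adjusted p = 0.126), and the interaction was lost in 2 analyses with 1 library left out (adjusted p up to 0.0531). With libraries rescaled to equal totals the inactive sex calls of Aurkaip1 and Chchd1 were lost (adjusted p = 0.982 and 0.703), and the estimates of Dap3 in the inactive period and of Ptcd3 changed sign.

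Of 23 assembly and ribosomal RNA modification factors 16 were higher and 1 lower in males in the active period and 15 and 1 in the inactive period, among them the pseudouridine synthase homologue Rpusd3 (0.83 ± 0.12 and 0.82 ± 0.12). Of 14 translation factors 11 were higher and 1 lower in the active period and 12 and 1 in the inactive period. Tufm, the elongation factor that delivers aminoacyl-tRNA, was higher by 0.68 ± 0.06 and 0.58 ± 0.06 and the initiation factor Mtif3 by 0.71 ± 0.08 and 0.64 ± 0.08, while Guf1, a ribosome-binding GTPase, was lower by -0.33 ± 0.06 and -0.28 ± 0.06. Gfm1, the translocation factor, rose in active females (0.32 ± 0.05, adjusted p = 6.71e-05) and not in active males (0.05, adjusted p = 0.592), with an interaction of -0.27 (adjusted p = 0.0419). This interaction was lost in 12 of 24 analyses with 1 library left out (adjusted p up to 0.0797), without the filter on low values (0.0669) and after correction for exon length and GC content (0.0837). Of 20 aminoacyl-tRNA synthetases and amidotransferase genes 12 and 14 were higher in males and 0 lower, and of 10 tested genes for transcription and upkeep of mitochondrial DNA 6 and 7 were higher and 0 lower, among them Tfam (0.44 ± 0.05 and 0.46 ± 0.05), which packages that DNA. Of 12 protease and import genes 11 and 12 were higher in males and 0 lower. Beside the counts of these lists, 30.1% of all genes were higher in males in the active and 27.9% in the inactive period.

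Of 10 regulators of mitochondrial biogenesis 2 were higher and 4 lower in males in the active period (30.1% and 30.5% of all genes), and 1 higher and 2 lower in the inactive period (27.9% and 27.8%). With libraries rescaled to equal totals the inactive estimate of Yy1, a gene of this list, changed sign. The coactivator Ppargc1a was lower in males by -0.70 ± 0.06 (adjusted p = 2.00e-11) and -0.45 ± 0.06 (adjusted p = 1.62e-07), whereas the nuclear receptor Esrra was higher by 0.33 ± 0.06 in the active period, a call lost with libraries rescaled to equal totals (adjusted p = 0.422). Gabpa, whose product binds the core marked in the promoters above, was lower in males by -0.26 ± 0.07 in the active period (adjusted p = 0.00131) and did not pass in the inactive period (-0.12 ± 0.07). The active call was lost after correction for exon length and GC content (adjusted p = 0.117).

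The RNAs that the mitochondrial ribosome is built from and reads were measured as well. The ribosomal RNAs mt-Rnr1 and mt-Rnr2 were higher in the active period in females (0.61 ± 0.11 and 0.71 ± 0.15) and in males (0.41 ± 0.11 and 0.59 ± 0.15), with adjusted p = 4.95e-04 and adjusted p = 0.0025 in females and adjusted p = 0.0144 and adjusted p = 0.0126 in males. With only the male groups in the fit mt-Rnr2 did not pass (adjusted p = 0.0618). Poly A selection captures such RNAs only in part. Of the 13 mitochondrial protein genes 9 were higher and 3 lower in males in the active period (30.1% and 30.5% of all genes) and 10 higher and 0 lower in the inactive period (27.9% and 27.8%). In active against inactive males 6 of the 13 were lower and 0 higher, and in females 0 passed in either direction, also at an unadjusted p under 0.05. Among the 6 was mt-Nd5, a subunit of complex I (-0.24 ± 0.06, adjusted p = 0.011). No test compared these RNAs with the ribosomal protein genes.

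The ribosome of the cytosol and the respiratory chain, measured in the same libraries, were set beside the mitochondrial ribosome. Of 78 cytosolic ribosomal protein genes 69 were called higher in males in the active period (median 0.29) and 25 in the inactive period (median 0.11), with 0 lower. Among all genes tested 30.1% were called higher in males in the active and 27.9% in the inactive period. The list of 81 nuclear respiratory chain genes takes in subunits of ATP synthase. Of these 81 genes 75 were higher and 1 lower in the active period (median 0.49) and 66 and 1 in the inactive period (median 0.31). In active against inactive males 40 of the 78 and 34 of the 81 were higher and 0 lower (8.43% and 6.95% of all genes), with medians of 0.18 and 0.17. The summed count of the mitochondrial ribosome genes was 17.3% ± 0.529 (SD, n = 6) of that of the cytosolic ribosomal proteins in females and 20.1% ± 0.814 in males in the active period. It was 17.6% ± 0.439 and 21.1% ± 0.551 in the inactive period, and the sexes did not overlap, with a highest female value of 18.4 and a lowest male value of 18.5. As a share of the respiratory chain sum it was 15.5% ± 0.295 (15.01 to 15.74) in females and 16.1% ± 0.164 (15.87 to 16.30) in males in the active period. In the inactive period it was 15.9% ± 0.161 (15.61 to 16.09) and 16.5% ± 0.228 (16.13 to 16.73). Within each period the sexes did not overlap in this share, while inactive females overlapped active males.

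Several measures moved with sex beside these results. The summed count of 9 proximal tubule markers ran from 281928 to 370807 in female and from 494971 to 560344 in male libraries, yet single markers split, with 5 called higher and 4 lower in males in both periods. All 5 podocyte and all 5 endothelial markers were lower in males in both periods, of 6 leukocyte markers 2 and 3 were lower and 0 higher, and of 4 thick limb markers 4 and 2 were lower and 0 higher. Of all genes 30.5% were called lower in males in the active and 27.8% in the inactive period, and 30.1% and 27.9% higher. Skeletal muscle markers were all under the mean of 10, and of 4 adrenal markers Cyp11b1 and Cyp11b2 were listed at 0. Summed fat markers varied between libraries, from 35.4 in active male replicate 6 to 1304 in inactive female replicate 2. The latter library also had the highest muscle sum (190, against a median of 3.16 in its group). Transcript length moved with sex as well. The principal transcripts of the 77 genes had a median of 1280 bases against 2893 in tested coding genes, and coding genes under 1000 bases had a median male against female log2 fold of 0.33 in the active period. At that length the 25 mitochondrial ribosome genes had a median of 0.57, the 28 from 1000 to 2000 bases had 0.54 against 0.20 for coding genes, and the 24 longer ones had 0.41 against -0.11. With log2 values corrected for exon length and GC content in each library, 69 genes were called higher in each period, 0 and 1 lower, with medians of 0.41 and 0.35. The part of cell composition in these results was not tested.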

How the data were processed

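RNA of 24 mouse kidney samples was analysed as deposited, 6 libraries in each of 4 groups taken from the labels. The signal in the deposited table is gene counts that the authors divided by 1 size factor per library, per the labels and the values. The submitters' processing notes name the build GRCm39, DESeq2 1.28.1, featureCounts, Trim Galore 0.6.10 and Subread 2.0.6, while strand setting and annotation release are not given there or in the labels. Whole reads were recovered by dividing by the step between values, and in each library 100% of nonzero values came out whole to within 0.05. In replicate 4 of the active males the recovered size factor was 1.0002, so its values are nearly the reads themselves.

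Symbols, lengths and overlaps came from a GRCm38 annotation, whose coordinates served for overlaps and chromosomes, while the printed promoter positions are RefSeq's on GRCm38.p6: 52073 of 56748 identifiers had a symbol and carried 99.2% of the signal. Values were tested as log2(value + 1) in genes with a mean of at least 10, with limma 3.58.1 (R 4.3.3, robust trend, 20 residual degrees of freedom, all groups in 1 fit). The fit was also run on simulated counts, drawn independently in each library with a small set of genes changed. Far more genes differed between the sexes here, so that run is not used as support for the calls. The planned design was kept. Alternatives were other pseudocounts, scalings and filters, edgeR 4.0.16 and DESeq2 1.42.0 on recovered reads, a length and GC correction, and leaving out each library. Each title number occurs in 1 male and 1 female library of the same period. The planned design did not use these 12 pairs, since the labels do not say that the number pairs a male and a female. Their correlations were -0.104 to 0.124 with 1 over 0.1, which does not settle whether they are pairs.

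Named genes were, per comparison, up to 8 called members of smallest p in each direction, the 5 highest and 3 lowest per kilobase, the 3 largest interactions, 6 members chosen by role, and up to 3 genes of each other list. Members and lists were chosen with earlier results of these data known. The principal transcript length, the length classes, the ratios between lists, the motifs and the promoters printed were chosen after values were seen, as was naming Mrps28 and the members that did not pass.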

Additional observations from a re-analysis of the deposited data

Results flagged for a closer look

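In 7 of 112 groups of 6 libraries examined, for 27 named genes and the sum over the 77 genes, 1 library stood apart from the other 5 by more than Dixon's 95% limit of 0.625 of the range, where chance alone flags about 1 in 20 groups. Mrps36 was apart in replicate 2 of the active females (1126 normalized counts) and in replicate 2 of the inactive females (1110). Mrpl18 was high in active female replicate 2 (1652), Mrpl2 in active female replicate 3 (1037) and Mrpl16 in inactive male replicate 4 (2027). Mrps30 was low in inactive female replicate 5 (833) and Mrps5 in inactive male replicate 2 (2312). The period difference differed between the sexes, by the interaction test in limma, for Mrpl54 (0.50), Mrpl27 (0.42), Mrps26 (0.39), Mrps24 (0.39) and Mrps22 (-0.33).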

How the results depend on the processing

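Counts of genes called are given as higher and lower among the 77. Rescaling to equal totals moved the sex comparisons the most, to 46 and 5 with a median of 0.21 in the active period and to 25 and 5 with a median of 0.10 in the inactive period, and the signs of 14 of the 77 estimates changed in the active and of 17 in the inactive period. Of these sign changes 10 in the active and 12 in the inactive period were in genes called higher before rescaling. Among the genes picked for naming, called differences that changed sign or were called with the other sign were those of Ptcd3 (-0.17 active, -0.0327 inactive), and in the inactive period Mrpl19 (-0.0691), Dap3 (-0.0762) and Yy1 (-0.14). In the inactive period 2 were lower under the upper quartile and 1 under the length and GC correction. For the period in females, 1 was higher without the filter, under TMM, the upper quartile and equal totals and 4 under the length and GC correction, and 5 were lower under the upper quartile and with only the groups compared, and 8 under equal totals. For the period in males, 6 were higher without the filter and with only the groups compared and 7 under the upper quartile, and 3 were lower under the upper quartile and equal totals and 1 under the length and GC correction. For the interaction, 2 were higher and 0 lower without the filter, 0 lower under TMM and 2 lower with DESeq2. The causes were not tested.

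Leaving out each library in turn gave 71 to 74 higher and 0 lower for sex in the active period (medians 0.43 to 0.52), 69 to 71 and 0 to 1 in the inactive period (0.35 to 0.40), 1 to 4 and 2 to 5 for the period in females (-0.01 to 0.01), 5 to 24 and 0 to 2 for the period in males (0.07 to 0.16) and 3 to 7 and 0 to 1 for the interaction (0.07 to 0.15). With the title number as a replicate block, 72 were higher and 0 lower in the active period, 70 and 0 in the inactive period and 4 and 1 for the interaction, and 9 of 24 libraries correlated best with their own number. The period comparisons share no numbers, so no block could be fitted there. Counting the GABPA core on the sense strand only gave 20.6% against 10.2%, NRF1 7.35% against 3.78% and YY1 11.8% against 3.36%.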
